A study of Mus musculus with 6 samples.

Results

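The genes described here encode the subunits of the 5 enzyme complexes of oxidative phosphorylation, measured as messenger RNA on 6 Affymetrix arrays of A3-1 cells, a mouse embryonic stem (ES) cell line. Members were rows (probe sets) of the deposited table whose single gene symbol begins as a Nduf, Sdh, Uqcr, Cox or Atp5 subunit does, with Ndufaf assembly factors left out and the brightest row standing for a gene. The rule gave 105 rows and 81 genes of 19938 with a row of their own. By the start of the symbol, 35 of these genes were counted in complex I, 4 in complex II, 8 in complex III, 17 in complex IV and 17 in complex V. This places Ndufa4 and Ndufa4l2 in complex I and Cox7a2l in complex IV, whatever their place in the enzymes. All 81 symbols matched RefSeq.

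The 3 groups held 2 arrays each, all from cells grown in medium with 20% serum and LIF, the cytokine that holds mouse ES cells undifferentiated. The untreated group received no siRNA. The siGFP group received a control siRNA against green fluorescent protein and the siLin28a group an siRNA against Lin28a, an RNA-binding protein of ES cells, each with 1 siRNA sequence and 48 h of incubation. The labels number the arrays of a group as replicates and do not say whether they came from separate cultures, so p-values measure only how far these arrays differ, which may be technical variation.

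Values are log2 expression after robust multi-array averaging (RMA) by the authors, deposited in steps of 0.1, so that a value printed as 10 is 10 to 1 decimal. On this scale a difference of 0.10 is 1.07-fold, 0.15 is 1.11-fold and 0.35 is 1.27-fold, so most differences given here are 1 to 3 steps of the deposited values. Differences were tested with limma, a linear model that shares its estimate of the spread across rows, over 23410 rows that name a gene. An adjusted p is corrected over all of these rows (Benjamini-Hochberg, threshold 0.05), and an unadjusted p is not. With 2 arrays against 2, an exact permutation test of a single gene cannot give a p under 0.333. The brightness of a row also depends on its probes, so levels are compared between arrays and not between genes.

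Lin28a read 9.1 and 9.4 in untreated cells, 9.1 and 9.4 with siGFP and 7.4 and 7.4 with siLin28a, a difference of −1.85 from siGFP (SE 0.16, n = 2 and 2), or 3.61-fold lower, with a limma adjusted p of 0.512. Correlations between arrays over all rows lay between 0.991 and 0.995. The upper quartile over all rows was 7.2 in each untreated and siGFP array and 7.0 and 7.1 in the siLin28a arrays. The 10 ES cell markers, among them Pou5f1, Sox2 and Nanog, had means over the 6 arrays from 8.27 to 12.48. All 10 were lower with siLin28a than with siGFP, with a median of −0.30. Among tested rows with means of 8 to 10 and 10 to 12, 69.5% and 74.2% were lower, each with a median of −0.10. Of the 10 markers, 5 had an unadjusted limma p under 0.05, against 4.05% of all tested rows. Their summed log2 level was 106.6 and 107.2 untreated, 106.0 and 108.1 with siGFP, and 102.9 and 103.8 with siLin28a. The 10 feeder fibroblast markers had means from 2.42 to 6.82 and summed levels of 48.5 and 50.2, 48.5 and 48.6, and 49.4 and 49.0 in the same order; the labels do not say whether feeder cells were used. The 9 measured markers of differentiated lineages had means from 4.17 to 7.08. The part of these marker differences in the results for the subunit genes was not tested, and in bulk RNA fewer cells of a type and less RNA per cell cannot be told apart.

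In oxidative phosphorylation, electrons from NADH enter complex I and those from succinate enter complex II. They pass through ubiquinone to complex III, through cytochrome c to complex IV, and there reduce oxygen. Complexes I, III and IV pump protons across the inner mitochondrial membrane, and complex V, the ATP synthase, lets them flow back to make ATP. Most subunits are encoded in the nucleus and are assembled with a few encoded by mitochondrial DNA. Mouse ES cells in serum and LIF are known to use both glycolysis and respiration.

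Nuclear genes for respiratory subunits are known for promoters bound by NRF1, by ETS factors such as GABP, and by YY1, so the promoters of the members were read from RefSeq's table for GRCm38.p6. A window of 300 bases, 250 before the annotated start and 50 after it, was found for 66 members (71 windows, since a gene can have several starts), and 15 members had none. Shown here, for each complex, is the stretch of 100 bases before the start of a member that the results below name. Matches to an NRF1 motif (GCGCNTGCG) or an ETS motif (CCGGAAG), on either strand, are in capitals. Only members with such a match in that stretch were considered, so every stretch shown holds a match by choice. Among them, the member with the largest difference between siLin28a and siGFP was taken. Ndufs6 lies at chr13:73328483-73328582, Sdha at chr13:74350241-74350340, Uqcrh at chr4:116075071-116075170, Cox6b1 at chr7:30626115-30626214 and Atp5k at chr5:108434400-108434499, each on the minus strand and each written 5′ to 3′ along its gene.
Ndufs6: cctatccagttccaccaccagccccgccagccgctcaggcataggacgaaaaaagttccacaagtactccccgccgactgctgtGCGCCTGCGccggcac
Sdha: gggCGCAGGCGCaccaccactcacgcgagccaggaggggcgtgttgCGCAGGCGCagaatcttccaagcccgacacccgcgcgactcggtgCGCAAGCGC
Uqcrh: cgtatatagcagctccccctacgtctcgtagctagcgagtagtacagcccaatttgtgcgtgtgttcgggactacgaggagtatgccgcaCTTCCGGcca
Cox6b1: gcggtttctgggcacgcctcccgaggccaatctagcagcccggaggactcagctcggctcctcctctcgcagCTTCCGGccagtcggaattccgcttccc
Atp5k: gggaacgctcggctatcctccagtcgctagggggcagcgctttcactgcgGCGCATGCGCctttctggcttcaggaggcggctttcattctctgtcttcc

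The match nearest to the start began 16 bases before it in Ndufs6 and 9 bases before it in Sdha, which holds 3 NRF1 matches. In Atp5k the matches on both strands overlap as 1 palindrome, 50 bases before the start. The ETS match began 10 bases before the start in Uqcrh and 28 bases before it in Cox6b1.

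Over all windows of the members, the NRF1 motif was found in 33.8% of windows, against 6.31% of the 32851 windows of all genes and 8.61% of the 21263 windows of protein-coding genes. The ETS motif was found in 23.9%, against 8.86% of all windows and 11.6% of protein-coding ones, and the YY1 motif (ANATGGCG) in 16.9%, against 3.65% and 4.51%. The Sp1 motif (GGGCGG) was found in 39.4%, between the 35.7% of all windows and the 46.2% of protein-coding ones. A cAMP response element (TGACGTCA) was found in 5.63% of the members' windows, or 4 of 71, against 1.79% and 2.23%. Median GC content was 57.3% in the members' windows, 52.7% in all windows and 56.3% in protein-coding ones. Matches of different motifs shared bases in 1 member window, an ETS and an Sp1 match.

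By complex, the NRF1 motif was in the windows of 8 of 31 complex I genes, 2 of 3 complex II genes, 3 of 5 complex III genes, 1 of 12 complex IV genes and 9 of 15 complex V genes. The YY1 motif was in 8 of 31 complex I genes and 3 of 15 complex V genes. These are matches of letters, described without a test.

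**Figure D1:**
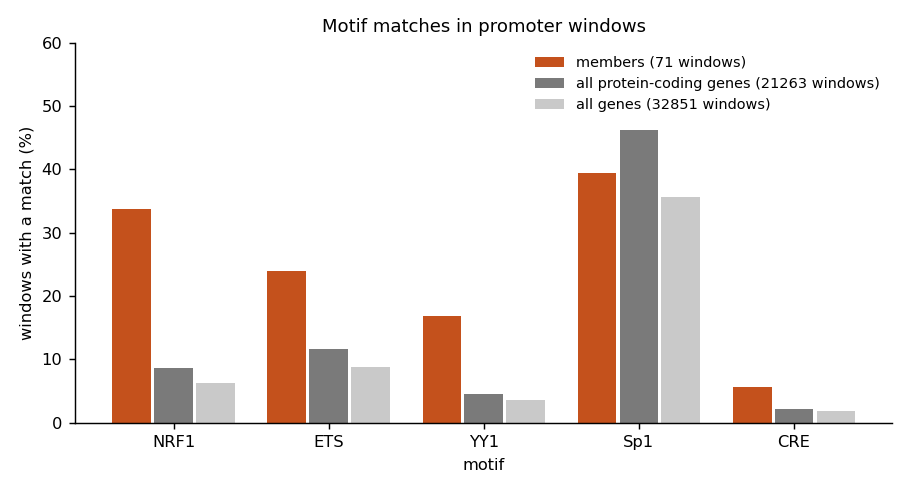
Bars give the percentage of 300-base promoter windows with a match to each of 5 motifs, for the members (71 windows), protein-coding genes and all genes. NRF1, ETS, YY1 and the cAMP response element are at 33.8%, 23.9%, 16.9% and 5.63% of the members' windows, above both other bars, while Sp1 lies between them.

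With siLin28a, the subunit genes were on balance slightly lower than with siGFP: 67 of 81 were lower, 9 higher and 5 equal. Their median difference was −0.15 (SD over genes 0.12), from −0.35 in Ndufs6, Cox7a1 and Atp5k to 0.30 in Ndufa4l2. Over all tested rows the median was 0.00 and 49.6% were lower. Bright rows were lower as a whole in this comparison. Among the 4068 tested rows with a mean inside the interquartile range of the members' means (7.77 to 10.08), the median difference was −0.10 and 69.0% were lower, against 82.7% of the members.

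No member passed the adjusted threshold, and neither did any other tested row (0%). At an unadjusted limma p under 0.05 there was 1 member, Ndufs6, or 1 of 81, against 4.05% of all tested rows. Both siLin28a arrays were below both siGFP arrays in 18 members (22.2%), against 11.8% of all tested rows and 16.3% of the equally bright rows. In the other direction this held for 2 members (2.47%), Ndufa4l2 and Cox6a2, against 9.03% of all tested rows and 2.26% of the equally bright rows. The difference exceeded the widest gap between replicates of a group in 11 members of 81, against 9.79% of all tested rows. For all 81 members the 95% interval of the difference excluded a 2-fold change, and for 56 a 1.5-fold change, with a median SE of 0.14. Of all 23410 tested rows, the interval excluded a 2-fold change in 22538 and a 1.5-fold change in 15319. Of the 4068 equally bright rows, it did so in 3898 and 2614.

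The count of lower members depended on single arrays and on the scaling. Without the second siGFP array, 39 members were lower and 29 higher, with a median of 0.00. Without the first siLin28a array, 51 were lower and the median was −0.05. A further quantile normalization of the deposited values gave 54 lower and 26 higher with a median of −0.06. Both siLin28a arrays then lay below both siGFP arrays in 11 members. The share of all tested rows was not counted under this scaling, so that count has no background. Cyclic loess gave 56 lower and 25 higher, also with a median of −0.06, whereas shifting the arrays to the same median gave 72 lower and a median of −0.20.

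**Figure D2:**
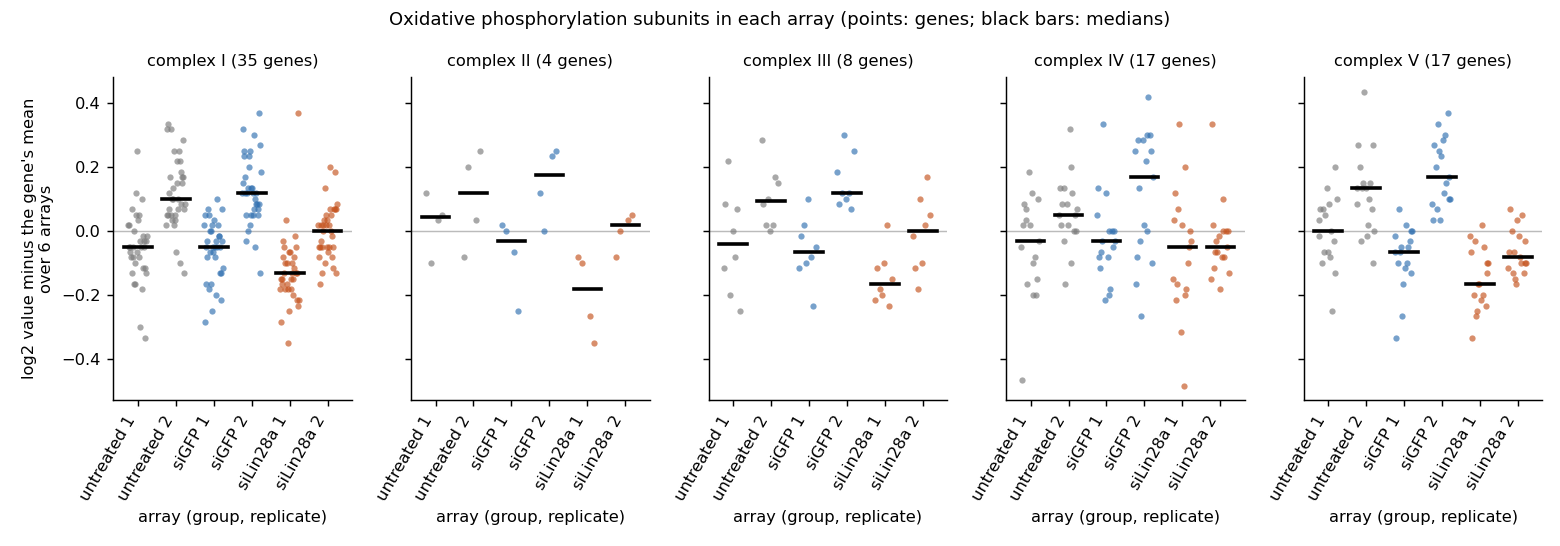
Each point is a subunit gene in 1 array, as its log2 value minus its own mean over the 6 arrays, by complex; black bars are medians over the genes of a complex. In every complex the second siGFP array has the highest median; the first siLin28a array has the lowest in all but complex IV, where both siLin28a arrays are at −0.05.

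The values by array varied within groups as well. As deviations from each gene's own mean, the members had medians of −0.03 and 0.08 untreated, of −0.05 and 0.12 with siGFP, and of −0.13 and −0.03 with siLin28a. On these medians the siGFP replicates lay further apart than the means of the siLin28a and siGFP groups. The second siGFP array alone was the highest for 32 members and the first siLin28a array alone the lowest for 28. Replicate 2 read above replicate 1 in 58 members in the untreated group, in 64 with siGFP and in 49 with siLin28a. It did so in all 3 groups for 37 members (45.7%), against 17.2% of all tested rows and 26.4% of the equally bright rows. The equally bright rows had medians of −0.02 and 0.08 in the siGFP arrays and −0.17 and 0.03 in the siLin28a arrays, so the low first siLin28a array was not limited to the subunit genes.

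**Figure D3:**
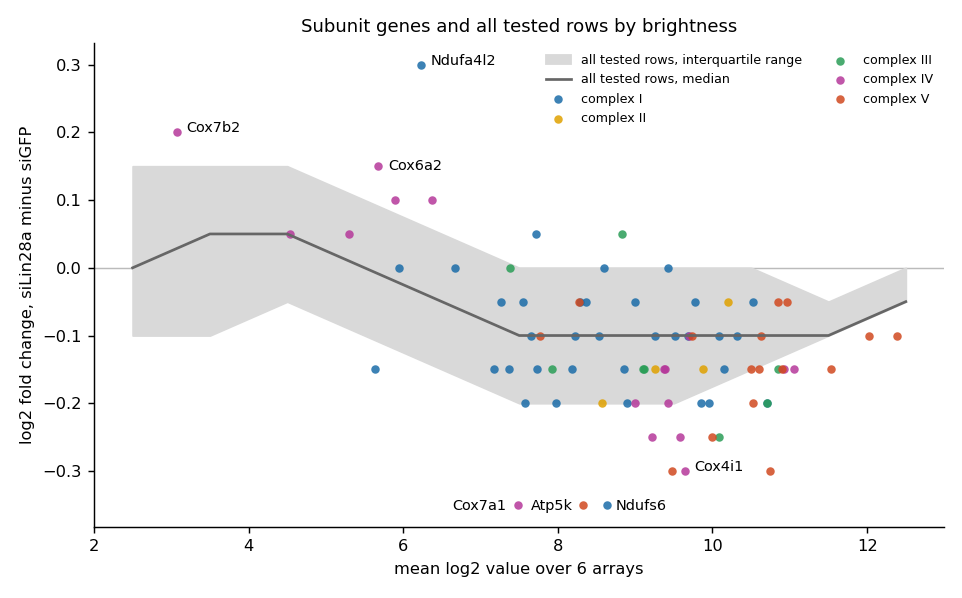
Points are the 81 subunit genes, by mean log2 value over 6 arrays (x) and log2 fold change siLin28a minus siGFP (y); the line and band are the median and interquartile range of all tested rows in steps of 1 along x. Most members brighter than 8 lie at or under the line, which is at −0.10 from 8 to 12 and at −0.05 beyond 12, and the members higher with siLin28a are mostly dim.

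The sign followed brightness among the members. All 23 members with a mean of 10 or more were lower with siLin28a in their brightest row (median −0.15). So were 32 of 35 with a mean from 8 to 10 (median −0.15). Of those with a mean from 6.5 to 8, 11 of 14 were lower (median −0.125). Of the 9 members with a mean under 6.5, 7 were higher, with a median of 0.10. All tested rows ran the same way. Their medians were 0.05 for means of 4 to 6, −0.05 for 6 to 8, and −0.10 for 8 to 10 and 10 to 12. In the same order, 36.7%, 59.1%, 69.5% and 74.2% of these rows were lower. Of the members, 91.4% from 8 to 10 and 100% at 10 or more were lower. The bands of members and of rows match only from 8 to 10. The part of brightness in the members' differences was not tested.

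Complex I, the NADH dehydrogenase, had 29 of 35 genes lower, 2 higher and 4 equal with siLin28a, with a median of −0.10, the same as the rows of its brightness (68.2% of them lower). In 8 genes (22.9%) both siLin28a arrays lay below both siGFP arrays, against 11.8% of all tested rows and 16.4% of the rows of its brightness. Without the second siGFP array 16 genes were lower and 13 higher, with a median of 0.00; without the first siGFP array the median was −0.20, and after a further quantile normalization it was −0.02.

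Ndufs6, a zinc-binding accessory subunit, read 8.6 and 8.7 untreated, 8.7 and 8.9 with siGFP and 8.4 and 8.5 with siLin28a. Its siLin28a arrays were the lowest of all 6. The difference was −0.35 (SE 0.13, 95% interval −0.66 to −0.04), with a limma unadjusted p of 0.0338 and an adjusted p of 0.953. It was the member with the smallest unadjusted p in this comparison.

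Ndufa4l2, a relative of Ndufa4 known to be induced in hypoxia, was the member furthest in the other direction. It read 6.1 and 6.1 untreated, 6.2 and 6.1 with siGFP and 6.6 and 6.3 with siLin28a, so its siLin28a arrays were the highest. The difference was 0.30 (SE 0.14, limma adjusted p 0.953). Ndufa4 itself, first assigned to complex I and later found with complex IV, read 10.6 and 10.8, 10.7 and 10.9, and 10.6 and 10.6 in the same order of groups. It differed by −0.20 (SE 0.14), and its siLin28a arrays lay under the siGFP arrays and reached the lower untreated one. Ndufa9, an accessory subunit with a nucleotide-binding fold, read 9.9 and 10, 10 and 10.1, and 9.8 and 9.9, a difference of −0.20 (SE 0.12).

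The core subunits of complex I carry its flavin and iron-sulphur clusters. Ndufs1, the largest of them, read 10.4 and 10.2 untreated, 10.1 and 10.2 with siGFP and 9.9 and 10.1 with siLin28a. Ndufv1, which binds NADH, read 9.4 and 9.7, 9.5 and 9.6, and 9.5 and 9.4. Ndufs7, near the ubiquinone site, read 9.6 and 9.9, 9.6 and 9.8, and 9.5 and 9.7. In Ndufs7 the replicates differed by more than the groups did, and the siLin28a arrays overlapped the siGFP arrays in all 3 genes. Ndufs8, an iron-sulphur subunit beside Ndufs7, read 8.4 and 8.6, 8.5 and 8.7, and 8.5 and 8.5. Rows that name Ndufb4 together with Ndufb4b were outside the rule; they differed by −0.35 and −0.30 between siLin28a and siGFP.

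Complex II, succinate dehydrogenase, links the tricarboxylic acid cycle to the chain. All 4 of its genes were lower with siLin28a than with siGFP, with a median of −0.15 against −0.10 in rows of its brightness, 71.2% of which were lower. Sdha, the flavoprotein that oxidises succinate, read 10 and 9.8 untreated, 9.9 and 10 with siGFP and 9.8 and 9.8 with siLin28a, a difference of −0.15 (SE 0.13). It was the 1 gene of complex II whose siLin28a arrays lay below both siGFP arrays, though they equalled an untreated array. That is 25% of its genes, against 15.8% of the rows of its brightness. Sdhb, the iron-sulphur subunit, read 8.6 and 8.6, 8.5 and 8.8, and 8.3 and 8.6, a difference of −0.20 (SE 0.16).

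The membrane anchors of complex II had no settled direction. Sdhc read 10.1 and 10.4, 10.2 and 10.2, and 10.1 and 10.2, a difference of −0.05 (SE 0.14), which became 0.04 after a further quantile normalization. Sdhd read 9.3 and 9.5, 9.0 and 9.5, and 8.9 and 9.3, a difference of −0.15 (SE 0.22), and became 0.10 without the second siGFP array. In both genes the groups overlapped. The median of complex II ran from −0.275 to −0.025 when single arrays were left out.

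Complex III, the cytochrome bc1 complex, had 6 of 8 genes lower, 1 higher and 1 equal, with a median of −0.15 against −0.10 for rows of its brightness (71.1% lower). In 3 genes (37.5%) both siLin28a arrays lay below both siGFP arrays, against 15.7% of those rows. Uqcrb, the ubiquinone-binding protein, read 10.3 and 10.1 untreated, 10.1 and 10.2 with siGFP and 9.9 and 9.9 with siLin28a. Its siLin28a arrays were below all 4 others, by a difference from siGFP of −0.25 (SE 0.13, limma adjusted p 0.953). The other rows of Uqcrb differed by −0.15 and −0.25, though rows of 1 gene are not independent. The core protein Uqcrc2 read 10.7 and 10.7, 10.8 and 10.8, and 10.6 and 10.6, so its groups did not overlap at all, with a difference of −0.20 (SE 0.11), or 2 steps of the deposited values.

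Uqcrfs1, the Rieske iron-sulphur protein, read 8.0 and 8.0, 7.9 and 8.0, and 7.8 and 7.8, a difference of −0.15 (SE 0.11) with siLin28a lowest. Uqcrc1, the other core protein, read 10.6 and 11, 10.8 and 11.1, and 10.7 and 10.9, and its replicates lay further apart than its groups. Uqcr10, a small subunit, read 9.0 and 9.4, 9.0 and 9.3, and 8.9 and 9.1, a difference of −0.15 (SE 0.19) that was 0.00 without the second siGFP array. The higher member was Uqcrh, the hinge protein, at 0.05. Without the second siGFP array the median of complex III was 0.00.

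Complex IV, cytochrome c oxidase, had 11 of 17 genes lower and 6 higher, with a median of −0.15 against −0.05 for rows of its brightness, 61.8% of which were lower. Those rows had means from 5.9 to 9.58. Most genes of complex IV fall into a dim and a bright set, near the ends of that range or outside it. Among tested rows with a mean from 8 to 10 the median was −0.10, and 69.5% were lower. Many of its subunits have a ubiquitous and a tissue-restricted isoform. The 6 higher genes were Cox4i2 (known from lung), Cox6a2 and Cox8b (heart and skeletal muscle) and Cox6b2, Cox7b2 and Cox8c (testis), all of them rows with a mean under 6.5. That grouping was seen in the values and is a description. It coincides with the sign of dim rows given above.

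Cox4i1, the ubiquitous form of a subunit that regulates the enzyme, read 9.6 and 9.7 untreated, 9.7 and 9.9 with siGFP and 9.5 and 9.5 with siLin28a. The siLin28a arrays were below all 4 others. Cox4i1 was the 1 gene of complex IV (5.88%) for which both lay below both siGFP arrays. The share was 11.8% of all tested rows and 16.2% of the rows of its brightness. The difference was −0.30 (SE 0.13, 95% interval −0.61 to 0.01, limma unadjusted p 0.0531 and adjusted p 0.953). Its counterpart Cox4i2 read 5.8 and 5.8, 5.9 and 5.9, and 6.1 and 5.9, a difference of 0.10.

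Cox7a1, the heart and muscle form of subunit 7a, was the tissue-restricted isoform on the other side. It read 7.6 and 7.8 untreated, 7.4 and 7.7 with siGFP and 7.0 and 7.4 with siLin28a, a difference of −0.35 (SE 0.19, limma adjusted p 0.953) from siGFP with 1 siLin28a array equal to a siGFP array. Cox7a2, the ubiquitous form, read 9.3 and 9.3, 9.1 and 9.5, and 9.0 and 9.1, a difference of −0.25 (SE 0.16). Cox7a2l, which joins complexes III and IV in supercomplexes, read 8.8 and 9.0, 9.0 and 9.3, and 8.9 and 9.0. It was highest with siGFP, by −0.20 for siLin28a minus siGFP, and its second row differed by −0.30.

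Cox6b1, the ubiquitous form of a subunit on the outer side of the membrane, read 9.5 and 9.7, 9.4 and 10, and 9.4 and 9.5. Its difference of −0.25 (SE 0.21) rested on the second siGFP array and was 0.05 without it. Cox6b2 read 6.2 and 6.2, 6.7 and 6.1, and 6.7 and 6.3, with replicates further apart than the groups. Cox6a1 read 9.4 and 9.4, 9.5 and 9.4, and 9.4 and 9.2, while Cox6a2 read 5.7 and 5.7, 5.6 and 5.6, and 5.8 and 5.7. Among the forms of subunit 8, Cox8a read 9.5 and 9.9, 9.5 and 10, and 9.5 and 9.8. Cox8b stayed between 4.5 and 4.6 and Cox8c between 5.2 and 5.4 in all 6 arrays.

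The core-contacting subunits Cox5a and Cox5b each differed by −0.15 between siLin28a and siGFP. Cox5a read 9.4 and 9.5, 9.3 and 9.5, and 9.2 and 9.3. Cox5b read 10.9 and 11.1, 11 and 11.3, and 11 and 11. The median of complex IV ran from −0.25 to 0.00 when single arrays were left out, with the extremes given by leaving out the first and the second siGFP array.

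Complex V, the ATP synthase, was lower with siLin28a in the brightest row of all 17 genes. The median was −0.15 and the range from −0.35 to −0.05. This unanimity depended on the row taken. The brightest row of Atp5md differed by −0.05 and its other rows by 0 and 0.05. Among the rows of Atp5l, 1 differed by 0 and the others by −0.10 to −0.05. When every row of a gene was averaged, the median of complex V was −0.125. In the 864 tested rows of its brightness the median was −0.10 and 74.1% were lower. In 5 genes (29.4%) both siLin28a arrays were below both siGFP arrays, against 16.6% of those rows. Without the second siGFP array 9 genes were lower, 5 higher and 3 equal, with a median of −0.05, and without the first siGFP array the median was −0.25. A further quantile normalization gave medians of −0.07 in complex V, −0.07 in complex II, −0.09 in complex III and −0.09 in complex IV.

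Atp5k, the membrane subunit e, which takes part in pairing of the enzyme, read 8.3 and 8.4 untreated, 8.3 and 8.7 with siGFP and 8.1 and 8.2 with siLin28a. Its siLin28a arrays were the lowest, by −0.35 from siGFP (SE 0.16, limma unadjusted p 0.0729 and adjusted p 0.953).

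The c subunits form the rotating ring and are encoded by the genes Atp5g1, Atp5g2 and Atp5g3, whose mature proteins are known to be identical. Atp5g3 read 10.8 and 10.9, 10.7 and 11, and 10.5 and 10.6, a difference of −0.30 (SE 0.14, limma adjusted p 0.953) with siLin28a lowest. Atp5g1 read 9.8 and 10, 9.4 and 10, and 9.4 and 9.8, a difference of −0.10. Atp5g2 read 10.6 and 11, 10.8 and 11, and 10.8 and 10.9, a difference of −0.05. The siLin28a and siGFP arrays overlapped in Atp5g1 and Atp5g2 and not in Atp5g3; the difference between the 3 genes was not tested.

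Atp5a1 and Atp5b form the catalytic head. Atp5a1 read 12 and 12.1, 12 and 12.1, and 12 and 11.9, and Atp5b read 12.3 and 12.4, 12.4 and 12.5, and 12.4 and 12.3, each a difference of −0.10, or 1 step. Atp5o, which ties the head to the peripheral stalk, read 9.4 and 9.6, 9.4 and 9.8, and 9.2 and 9.4, a difference of −0.30 (SE 0.18). Atp5mpl, a small membrane protein of the synthase, read 10 and 10.1, 9.9 and 10.3, and 9.8 and 9.9, a difference of −0.25 (SE 0.16). In both genes 1 siLin28a array equalled a siGFP array.

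**Figure D4:**
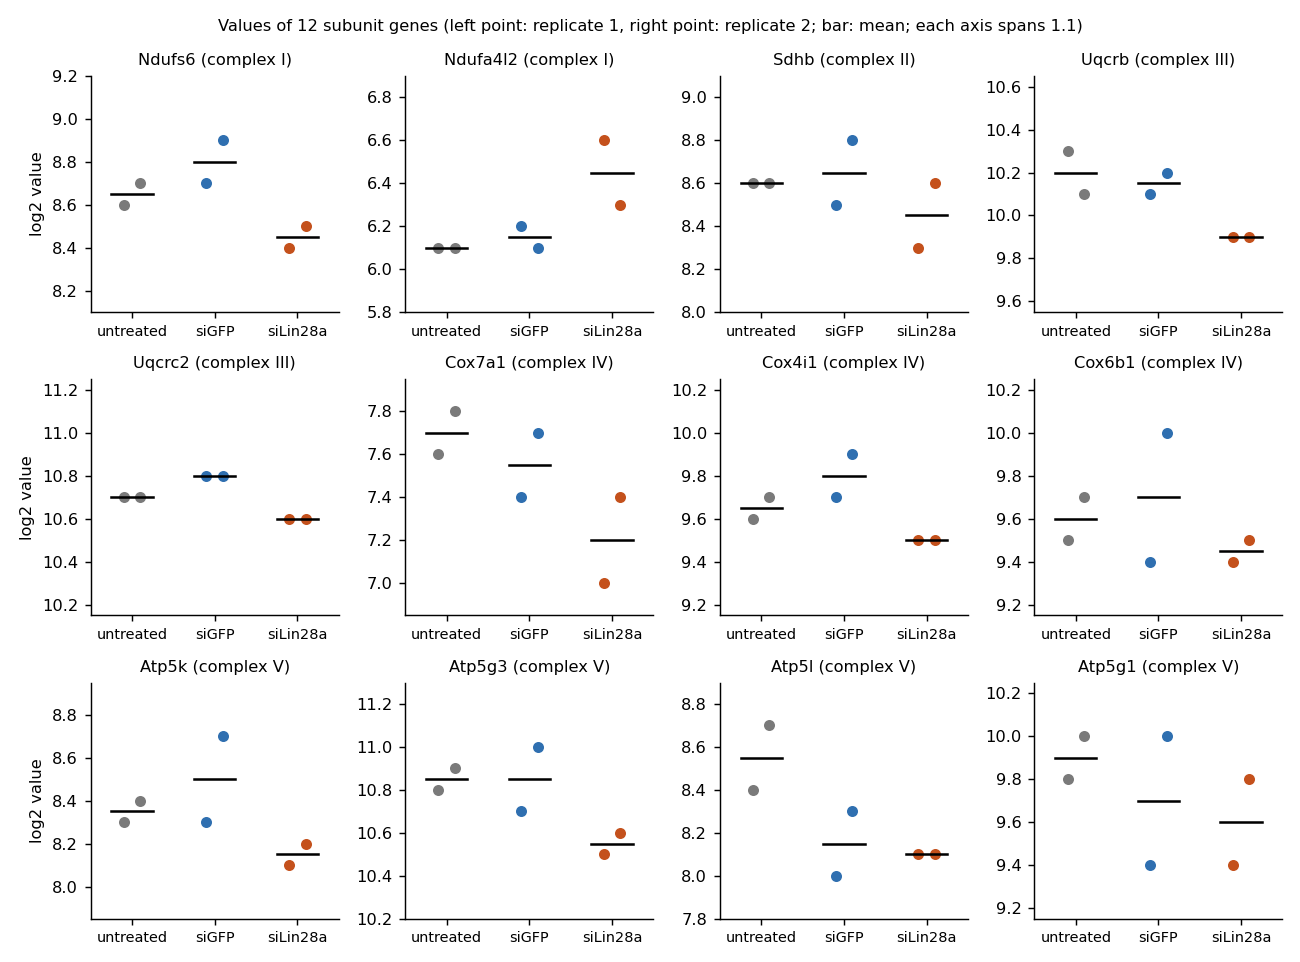
Log2 values of 12 subunit genes in the 3 groups, with the left point replicate 1, the right point replicate 2 and the bar their mean; every vertical axis spans 1.1. Ndufs6, Uqcrb, Uqcrc2, Cox4i1, Atp5k and Atp5g3 have both siLin28a arrays lowest, Ndufa4l2 has them highest, and Atp5l is lower in both siRNA groups than untreated.

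The control siRNA was compared with untreated cells in the same way. Between siGFP and untreated arrays 39 members were higher, 30 lower and 12 equal, with a median of 0.00, the same as over all tested rows. The medians were 0.00 in complexes I, II, III and V and 0.05 in complex IV. No member and no tested row (0%) passed the adjusted threshold, and 1 member, Atp5l, had an unadjusted limma p under 0.05, against 3.52% of tested rows. The arrays did not overlap in 2 lower members (Cox6a2 and Atp5l, against 8.46% of tested rows) and 2 higher members (Uqcrc2 and Cox4i2, against 9.22%). Among the equally bright rows these shares were 7.47% lower and 7.82% higher. The 95% interval excluded a 2-fold change for all 81 and a 1.5-fold change for 62. Of all 23410 tested rows, it did so for 22598 and 15666. Without the first siGFP array 14 members were lower, and without the second siGFP array 57 were.

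Atp5l, the membrane subunit g of complex V, read 8.4 and 8.7 untreated, 8.0 and 8.3 with siGFP and 8.1 and 8.1 with siLin28a. Both siRNA groups were below the untreated arrays. The difference of siGFP from untreated was −0.40 (SE 0.16, limma unadjusted p 0.0475 and adjusted p 0.961), and that of siLin28a from siGFP was −0.05. Atp5l has 6 rows, and the difference of siGFP from untreated lay between −0.45 and −0.35 over them. Rows of 1 gene can share probes with near-identical copies elsewhere in the genome, so these rows are not independent and the gene is uncertain. The same caution applies to all 16 members with several rows, among them Uqcrb and Cox7a2l.

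The other named members of this comparison had replicates about as far apart as the groups. Cox7a2l was 0.25 higher with siGFP (SE 0.15), with 1 siGFP array equal to an untreated array, and its second row was 0.35 higher. Cox6b2 was 0.20 higher (SE 0.23), Ndufb2 0.20 higher (SE 0.24), Ndufs6 0.15 higher (SE 0.13) and Uqcrc1 0.15 higher (SE 0.19). Sdha was 0.05 higher. Uqcrh differed by −0.20 (SE 0.18), Atp5g1 by −0.20 (SE 0.24) and Sdhd by −0.15 (SE 0.22). Every one of these 9 genes had a limma adjusted p of 0.961.

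The comparison of siLin28a with untreated cells shares its arrays with both others and is given beside them. Here 62 members were lower, 11 higher and 8 equal, with a median of −0.10, against a median of 0.00 over all tested rows and −0.10 over the equally bright rows. The complex medians were −0.10, −0.125, −0.125, −0.05 and −0.15 from complex I to complex V. No member and no tested row (0%) passed the adjusted threshold, and 3 members had an unadjusted limma p under 0.05 (Ndufa4l2, Cox7a1 and Atp5l), or 3 of 81, against 6.44% of tested rows. The siLin28a arrays lay below both untreated arrays in 20 members (24.7%), against 12.6% of all tested rows and 19.5% of the equally bright ones. They lay above in 3 members (Ndufa4l2, Cox4i2 and Cox6b2, 3.70%), against 11.1% of all tested rows and 5.8% of the equally bright ones. Without the second untreated array, 45 members were lower and 25 higher, with a median of −0.05.

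Cox7a1 had the largest difference of any member in this comparison, −0.50 (SE 0.19, limma unadjusted p 0.0362 and adjusted p 0.733), with both siLin28a arrays below both untreated arrays. Atp5l differed by −0.45 (SE 0.16, limma unadjusted p 0.0312 and adjusted p 0.705) and Ndufa4l2 by 0.35 (SE 0.14, limma unadjusted p 0.0463 and adjusted p 0.753). Cox7b2, a dim row that read 2.6 and 3.2 untreated, 3.2 and 2.9 with siGFP and 3.1 and 3.4 with siLin28a, differed by 0.35 (SE 0.24) with overlapping groups. Ndufv3, a small accessory subunit beside the NADH site, read 7.6 and 7.9, 7.3 and 7.9, and 7.3 and 7.5, a difference of −0.35 (SE 0.23).

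Uqcrb, Uqcrc2, Uqcrfs1, Ndufs6, Ndufa6, Cox4i1, Atp5g3, Atp5h and Atp5k had both siLin28a arrays below all 4 other arrays. The share of all tested rows below all 4 was not counted, so the list has no background. Of the equally bright rows, 16.3% lay below both siGFP arrays and 19.5% below both untreated arrays. Among the listed genes, Uqcrb differed from untreated by −0.30 (SE 0.13), Atp5g3 by −0.30 (SE 0.14) and Uqcrfs1 by −0.20 (SE 0.11). Sdhd and Sdhb differed by −0.30 (SE 0.22) and −0.15 (SE 0.16) with replicates as far apart as the groups.

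**Figure D5:**
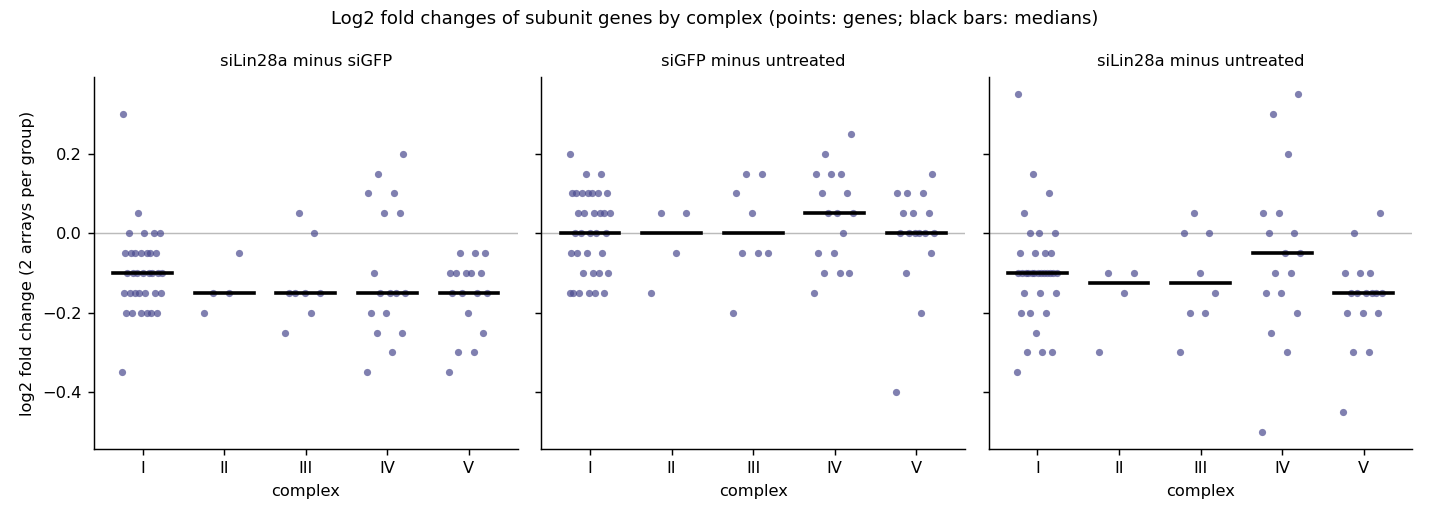
Log2 fold changes of the subunit genes (points) by complex in the 3 comparisons, with black bars at the medians. The medians are −0.10 to −0.15 for siLin28a minus siGFP, 0.00 to 0.05 for siGFP minus untreated and −0.05 to −0.15 for siLin28a minus untreated.

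Members with and without a motif match had similar medians. The median for siLin28a minus siGFP was −0.15 in the 23 members with an NRF1 match (19 lower) and −0.10 in the 43 without one (38 lower). It was −0.10 with an ETS match and −0.15 without, and −0.125 with a YY1 match and −0.15 without. These medians lie within 1 step of the deposited values of each other, and no test was made.

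The factors that read such motifs are described by their own messenger RNA. Of 24 listed regulators of respiratory genes and mitochondrial DNA, 23 were measured. With siLin28a relative to siGFP, 19 (82.6%) were lower, 2 higher and 2 equal, with a median of −0.20. Of all tested rows 49.6% were lower, and of rows as bright as the members 69.0%, with a median of −0.10. None passed the adjusted threshold (limma) and none had an unadjusted p under 0.05 in this comparison. Nrf1 read 7.7 and 7.8 untreated, 7.8 and 7.9 with siGFP and 7.5 and 8.0 with siLin28a, with overlapping groups. Gabpa, the DNA-binding subunit of GABP, read 9.9 and 9.5, 9.3 and 9.3, and 8.8 and 9.2. All 4 siRNA arrays were below both untreated arrays, with differences of −0.40 for siGFP and −0.70 for siLin28a (limma unadjusted p 0.0107 for the latter, not past the adjusted threshold). In siLin28a minus untreated, 3 regulators (13.0%) had an unadjusted limma p under 0.05, against 6.44% of tested rows. Yy1 read 9.0 and 8.8, 8.9 and 9.0, and 8.7 and 8.9. Tfam, which packages and transcribes mitochondrial DNA, read 8.8 and 8.3, 8.3 and 8.7, and 8.1 and 8.4. Ppargc1a, a coactivator of mitochondrial biogenesis in muscle and brown fat, was dim in every array, between 2.8 and 3.1.

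Partners of the complexes outside the rule are given beside the same background, 49.6% of all tested rows and 69.0% of rows as bright as the members being lower. Of 19 carriers and further subunits measured, 13 (68.4%) were lower, 1 higher and 5 equal with siLin28a relative to siGFP, with a median of −0.10, none past the adjusted threshold and none with an unadjusted limma p under 0.05. Cytochrome c (Cycs), the mobile carrier between complexes III and IV, read 9.5 and 9.4 untreated, 9.1 and 9.3 with siGFP and 8.9 and 9.2 with siLin28a. Cyc1, the cytochrome c1 of complex III, read 10.2 and 10.5, 10.2 and 10.5, and 10.2 and 10.4. Etfb, which feeds electrons from fatty acid oxidation to ubiquinone, read 9.0 and 9.2, 9.0 and 9.3, and 8.8 and 8.8, a difference of −0.35 (limma unadjusted p 0.0561). Of the subunits encoded by mitochondrial DNA, 2 had a row: COX2, of complex IV, read 12.2 or 12.3 in all 6 arrays, and ND3, of complex I, read 11.4 and 11.2, 10.9 and 11.4, and 10.8 and 11.1.

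Assembly factors, which build the complexes and are not part of them, were measured for 49 of 54 listed genes. With siLin28a, 38 (77.6%) were lower, 9 higher and 2 equal relative to siGFP, with a median of −0.10, and both siLin28a arrays lay below both siGFP arrays in 5 (10.2%), against 11.8% of all tested rows. Surf1, a factor for complex IV, stood on the other side. It read 7.9 and 8.0 untreated, 7.6 and 7.8 with siGFP and 8.0 and 8.4 with siLin28a, a difference of 0.50 from siGFP (limma unadjusted p 0.0247, not past the adjusted threshold). Cox11, which delivers copper to complex IV, read 8.1 and 8.1, 7.8 and 8.1, and 7.5 and 7.8, a difference of −0.45 from untreated (limma unadjusted p 0.0312).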

How the data were processed

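RNA was hybridised to Affymetrix arrays after labelling of 300 ng of total RNA, per the labels' protocols. The deposited values are log2 expression made by the authors with RMA in Affymetrix Expression Console, per the submitters' processing notes; tool versions, array library files and the build are each not given in the sources used here. RMA usually includes a quantile normalization, yet the upper quartiles of the deposited arrays still ran from 7.0 to 7.2; an overall change in RNA per cell is not measured by such values. Rows were named through GEO's platform annotation: of 35556 rows, 21789 name 1 gene, 1621 several and 12146 none. Rows naming at least 1 gene were fitted with limma 3.58.1 in R 4.3.3 (3 groups, no covariate, 3 residual degrees of freedom, two-sided), and the script was tested on simulated data. Named members are the 4 of each complex with the largest difference between siLin28a and siGFP, the 2 of each complex in the other comparisons, and the core subunits and isoform families. The members and lists were chosen with earlier results of these data known. Alternatives covered scaling, dim rows, the replicate block, the prior, the row standing for a gene and each array left out; fits without 1 array assume that the lone array varies like the other groups.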

Additional observations from a re-analysis of the deposited data

How the results depend on the processing

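Counts of tested rows past the adjusted threshold were 0 in all 3 comparisons; they became 1 (siLin28a minus siGFP) and 5 (siLin28a minus untreated) with cyclic loess, and 1 and 7 with a robust prior, and the cause was not tested. Leaving out single arrays, the medians ran from −0.275 to −0.025 in complex II, from −0.25 to 0 in complex III and from −0.25 to 0 in complex IV for siLin28a minus siGFP, and from −0.05 to 0.10 in complex IV and from −0.15 to 0.15 in complex V for siGFP minus untreated. Named differences that changed sign, none of them past the threshold, were Sdhc (siLin28a minus siGFP), at 0.0417 with quantile normalization and 0.0339 with cyclic loess, and, over single arrays left out, Sdhd (−0.40 to 0.10) and Cox6b1 (−0.55 to 0.05) for siLin28a minus siGFP and, for siGFP minus untreated, Atp5g1 (−0.50 to 0.10), Sdhd (−0.40 to 0.10), Cox6b2 (−0.10 to 0.50), Ndufb2 (−0.05 to 0.45), Sdha (−0.05 to 0.15) and Uqcrc1 (−0.05 to 0.35). Of rows with an unadjusted p under 0.05 in siLin28a minus siGFP, 44.2% were higher, and 23.6% with arrays shifted to the same median; in siGFP minus untreated these shares were 62.2% and 84.6%, and in siLin28a minus untreated 44.8%, and 59.0% with quantile normalization. The replicate block gave 1350, 1255 and 1933 rows with an unadjusted p under 0.05, against 949, 825 and 1508 without it, and 0 past the threshold. The labels share only a replicate number; deviations of same-numbered arrays correlated at 0.154, −0.0352 and 0.357 over rows. The members' median SE, 0.14, was about as large as their median difference; the precision is limited by the number of arrays. The alternatives for the counts of lower members and of members without overlap were chosen after seeing the data.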

Other observations

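Other mitochondrial gene lists are given beside the shares of all tested rows (49.6%) and of rows as bright as the members (69.0%) that were lower with siLin28a than with siGFP, and none of their genes passed the adjusted threshold (limma). Of 77 mitochondrial ribosomal protein genes, which build the ribosome that translates the subunits encoded by mitochondrial DNA, 51 (66.2%) were lower, 12 higher and 14 equal with siLin28a relative to siGFP, with a median of −0.05. At an unadjusted limma p under 0.05 there was 1 of them (1.30%, against 4.05% of all tested rows), Mrps9, which read 8.6 and 8.6 untreated, 8.4 and 8.5 with siGFP and 8.1 and 8.2 with siLin28a. Of 18 measured tricarboxylic acid cycle enzymes, 13 (72.2%) were lower, 1 higher and 4 equal, with a median of −0.125. Sucla2, a subunit of succinyl-CoA synthetase, read 8.6 and 8.2, 8.3 and 8.4, and 7.7 and 8.0, a difference of −0.50 from siGFP with an unadjusted limma p of 0.0317. Idh2, the mitochondrial NADP-dependent isocitrate dehydrogenase, was 0.45 higher with siGFP than untreated, at 8.5 and 8.6 untreated and 9.1 and 8.9 with siGFP.

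Of 24 genes of mitochondrial protein import, 15 (62.5%) were lower, 5 higher and 4 equal with siLin28a relative to siGFP, with a median of −0.05 and none at an unadjusted p under 0.05. Timm50, of the inner membrane translocase, was higher in both siRNA groups than untreated. It read 8.6 and 8.6 untreated, 9.1 and 9.0 with siGFP and 9.1 and 8.9 with siLin28a. Rows that name Cox7c together with a predicted gene, and so lie outside the members, differed by −0.10 to −0.05 between siLin28a and siGFP.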
